A study of Mus musculus with 8 samples.

Results

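The genes described here encode the nuclear-encoded subunits of the mitochondrial respiratory chain and ATP synthase, with a few of their assembly factors. They were chosen by symbol alone: every symbol that starts with Ndufa, Ndufb, Ndufc, Ndufs, Ndufv, Uqcr, Cox4 to Cox8 or Atp5, together with Sdha, Sdhb, Sdhc and Sdhd. The rule found 93 of the 24717 gene symbols in the tables. Of these, 92 were in both kinds of table and Ndufaf8 was in the E12 tables. They fall into 7 core and 29 accessory subunits of complex I, 4 of complex II, 8 of complex III, 20 of complex IV and 15 of complex V, plus 10 assembly and related genes (8 of the Ndufaf series, Atp5s and Atp5sl). Ndufa4 and Ndufa4l2, named for complex I, were placed with complex IV, where their proteins are now known to belong.

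RNA of mouse hypothalamus was sequenced from wild-type embryos and from embryos mutant for Foxd1, a forkhead transcription factor gene. Each genotype had 1 library at embryonic day 12 (E12.0), 1 at E12.5 and 2 at E17.5. All libraries came from pooled RNA, from 8 Foxd1-null and 10 control embryos in the whole series, and the labels describe the controls in words that could cover both genotypes, so genotype was taken from the name given to each tissue. The Foxd1 allele, the strain and the number of embryos in each pool are not given in the sources used here. Nothing says that the pools were separate litters, so p-values measure the spread between these libraries. Foxd1 itself was at 1.96 to 30.3 FPKM in the wild-type libraries and 0.230 to 2.77 in the mutant libraries, and at each stage every mutant library lay below every wild-type library.

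Mitochondria make most of a neuron's ATP. Complex I (NADH dehydrogenase) and complex II (succinate dehydrogenase) pass electrons to ubiquinone, complex III (cytochrome bc1) passes them to cytochrome c, and complex IV (cytochrome c oxidase) passes them to oxygen. Protons pumped by complexes I, III and IV flow back through complex V, the ATP synthase. A small number of subunits are encoded in mitochondrial DNA, and the others come from nuclear genes such as these.

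Values are FPKM, a fragment count scaled to transcript length and library size, so levels of different genes can be compared per length. Several facts about the libraries touch all results below. Small RNA genes took between 9.77% and 24.5% of FPKM, which lowers the values of all other genes to a different degree in each library. The E12 files hold 1 row per gene and the E17.5 files 1 row per RefSeq accession, so they were made separately and stages were only described. Depth, estimated from the steps between low FPKM values, was 30.5 to 43.0 M fragments at E17.5. At E12 the estimate, 4.26 to 56.1 M, was uncertain, since only 32.0% to 41.4% of low values came within 0.1 of a whole fragment. The 6 hypothalamic markers Nkx2-1, Otp, Sim1, Rax, Nkx2-4 and Hmx3 were above 0 in all 8 libraries.

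The respiratory chain genes were abundant in every library. Their summed level was 6746 FPKM in the wild-type library and 8359 in mutant at E12.0, and 11692 and 11061 FPKM at E12.5. At E17.5 it was 13524 and 13720 FPKM in the wild-type libraries and 13452 and 12152 in mutant. The E12.0 libraries were thus lowest, mutant replicate 2 stood below the other E17.5 libraries, and the wild-type library of E12.0 was the lowest of all 8. As a share of the FPKM outside small RNA genes the sum went from 2.16% in wild-type at E12.0 to between 2.92% and 3.21% at E17.5.

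Most of this signal came from complexes V, IV and I. At E17.5 the wild-type sum was 4246 ± 57.5 FPKM (mean ± SD, n = 2) for complex V and 3697 ± 12.3 for complex IV. The 29 accessory subunits of complex I summed to 3357 ± 42.3 FPKM and its 7 core subunits, which carry the flavin and iron-sulfur clusters, to 499 ± 5.69. Complex III summed to 1353 ± 11.3 FPKM, complex II to 353 ± 4.66 and the assembly and related genes to 118 ± 4.56. The order of the classes was set by the number of genes as well as by the level of each: the assembly genes were between 6.17 and 27.4 FPKM each in the wild-type libraries of E17.5, while Atp5b, which encodes the catalytic beta subunit of ATP synthase, was at 573 and 580 FPKM.

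**Figure D1:**
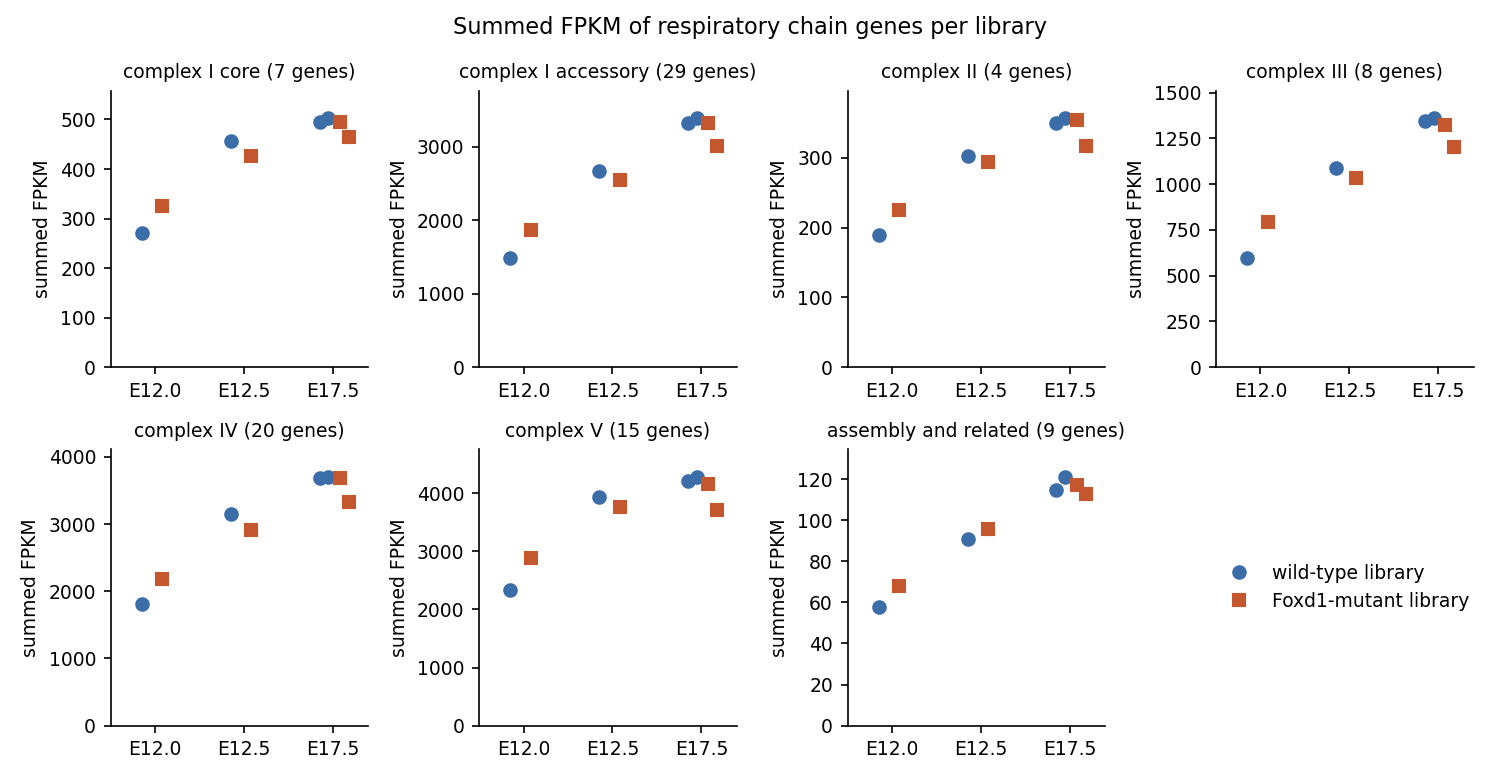
Summed FPKM of the genes of each class (y axis, from 0) in each library, by embryonic stage (x axis); circles are wild-type and squares Foxd1-mutant libraries, 1 per genotype at E12.0 and E12.5 and 2 at E17.5. Every class is lowest at E12.0 and highest at E17.5 in wild-type, and at E17.5 the lower square is mutant replicate 2.

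All classes were higher at E17.5 than at E12. The ratio of mean sums was 1.52 for the complex I accessory subunits, 1.49 for complex III, 1.49 for the assembly genes, 1.43 for complex IV, 1.36 for complex II, 1.32 for the complex I core and 1.27 for complex V. Against E12.5 alone the ratios were smaller, from 1.25 for the complex I accessory subunits to 1.06 for complex V. Small RNA genes and the low E12.0 libraries both enter these ratios: for all members the ratio was 1.40, it was 1.25 with small RNA genes left out and FPKM rescaled, and 1.16 without the E12.0 libraries.

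Of the 93 members, 88 had a mean of at least 1 FPKM and could be followed over the stages. In 51 of them all 4 E17.5 libraries lay above all 4 E12 libraries, against 45.4% of all genes with that mean, and 1 lay below, against 17.4%. After each library was centred on the median of its genes the counts were 44, against 36.3%, and 4, against 33.8%. Without the E12.0 libraries 51 members lay above, against 47.1%, and 11 below, against 35.9%. The share of members that lay above was thus larger than that of all genes in each of these counts. It was 58.0% with all libraries, 50% after centring and 58.0% without the E12.0 libraries. With small RNA genes left out it was 62.5%, against 43.1% of all genes. A smaller share of members than of all genes lay below, and these differences in share were not tested. On average 84 of the 88 were higher at E17.5 than at E12 and 65 were higher than at E12.5. The median log2 difference from E12.5 to E17.5 was 0.21 for the members and 0.08 for all genes. Values of log2 throughout are of FPKM + 1.

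**Figure D2:**
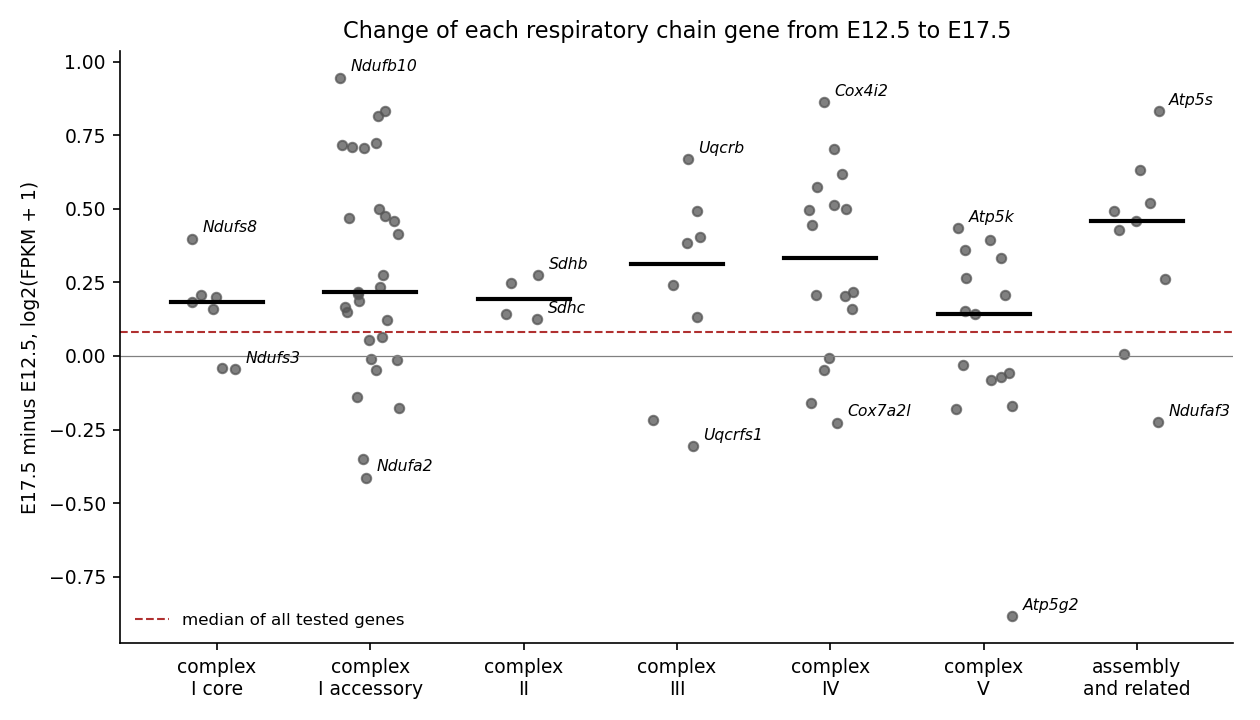
Difference of mean log2(FPKM + 1) between the 4 E17.5 and the 2 E12.5 libraries (y axis) for the 88 respiratory chain genes that average 1 FPKM or more, by class; points are genes, black bars are class medians, and the dashed line is the median of all genes, 0.08. The class medians lie between 0.14 for complex V and 0.46 for the assembly genes, and Atp5g2 lies lowest.

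Within complex I the core subunits differed less between stages than many accessory ones. Ndufs1, the largest iron-sulfur subunit, was at 29.6 and 44.0 FPKM in the wild-type libraries of E12.0 and E12.5 and at 31.1 and 43.5 in the mutant ones. At E17.5 it was at 48.7 and 51.1 FPKM in the wild-type libraries and 49.1 and 50.5 in mutant. All E17.5 libraries were above all E12 libraries, by a ratio of 1.14 against E12.5. For Ndufs8 and Ndufv2 the libraries of E12 and E17.5 did not overlap either, with ratios to E12.5 of 1.32 and 1.15. Ndufs3, Ndufs7 and Ndufv1 overlapped, with ratios of 0.97, 0.97 and 1.12. Ndufv1 binds the flavin that accepts electrons from NADH.

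The largest stage differences of complex I were in accessory subunits, which surround the core and are needed for its assembly and stability. Ndufa5 was at 30.9 and 81.5 FPKM in the wild-type libraries and 50.6 and 72.2 in mutant at E12.0 and E12.5. At E17.5 it was at 139 and 136 FPKM in the wild-type libraries and 137 and 137 in mutant. Its E17.5 libraries were nearly level, and their mean was 2.33 times that of E12 and 1.79 times that of E12.5. Ndufb10 was at 43.4 and 61.9 FPKM in the wild-type libraries and 45.4 and 57.5 in mutant at E12.0 and E12.5, and at 107 to 122 FPKM in the 4 E17.5 libraries, 1.94 times E12.5. Ndufv3 was 1.77 times, Ndufb8 1.66, Ndufa3 1.66, Ndufs6 1.65 and Ndufa12 1.64 times as high at E17.5 as at E12.5. Other accessory subunits were lower: Ndufa2 was at 104 and 105 FPKM at E12.5 and at 62.3 to 87.9 at E17.5, and Ndufc1 was at 117 and 129 at E12.5 and at 80.2 to 107 at E17.5. At E12.0 they were at 58.6 to 79.6 and 62.8 to 98.4 FPKM, so both genes overlapped between E17.5 and E12 as a whole. Genes of one complex thus differed in opposite directions between E12.5 and E17.5.

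Complex II, the one complex with no mitochondrially encoded subunit, summed to 1.16 times its E12.5 level at E17.5, as did all members together. Against E12.5, Sdha, its flavoprotein, was 1.19 times as high at E17.5, Sdhb, its iron-sulfur protein, 1.21 times, and the membrane anchors Sdhc and Sdhd 1.10 and 1.11 times. In Sdha and Sdhb the E17.5 libraries did not overlap with those of E12, and in Sdhc and Sdhd they did. Sdha was at 71.2 to 73.3 FPKM in the 4 E17.5 libraries, so neither genotype nor replicate set them apart.

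In complex III the ratios to E12.5 ran from 0.81 for Uqcrfs1 to 1.59 for Uqcrb. Uqcrb, a ubiquinone-binding subunit, was at 73.2 and 147 FPKM in the wild-type libraries and 113 and 141 in mutant at E12.0 and E12.5, and at 214 and 233 in wild-type and 234 and 240 in mutant at E17.5. It was the member of complex III with the largest ratio, 1.94 against E12 and 1.59 against E12.5. Uqcrc1 and Uqcrc2, the core proteins, were 1.10 and 1.18 times as high at E17.5 as at E12.5. Uqcrfs1, the Rieske iron-sulfur protein that hands electrons on to cytochrome c1, was at 97.2 and 97.9 FPKM at E12.5 and at 69.3 to 84.8 at E17.5, lower in all 4 libraries. Uqcrq was at 137 and 138 FPKM at E12.5 and at 105 to 133 at E17.5. The E12.0 libraries were lower than those of E12.5 in both, at 55.7 and 67.7 FPKM for Uqcrfs1 and 122 and 104 for Uqcrq.

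Complex IV contains several subunits that exist as alternative forms in different tissues. The forms known from liver, brain and most other tissues made up nearly all of each group here. At E17.5 Cox4i1 was 99.5% ± 0.0540 (SD, n = 4) of the Cox4 group, Cox6a1 99.9% ± 0.0430 of the Cox6a group and Cox6b1 99.1% ± 0.197 of the Cox6b group. Cox7b was 99.5% ± 0.166 and Cox8a 99.9% ± 0.0577 of theirs, and the same held at E12, where each of these 5 genes had a mean share above 98%. The heart and muscle form Cox6a2 reached at most 0.401 FPKM in any library, Cox8b 1.61 and Cox7b2 0.850, and Cox8c was listed at 0 in all 8. These 4 genes had means under 1 FPKM and were not tested. Cox7a1, the muscle form of the Cox7a group, was at 0.822 to 4.11 FPKM, while Cox7a2 and Cox7a2l, the latter linked to supercomplexes, took 53.7% ± 0.982 and 45.6% ± 1.13 of that group at E17.5.

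The skeletal and heart muscle markers Acta1, Actc1, Myh3, Myh8, Tnnt3, Tnnc2, Ckm, Mylpf and Myog summed to 1.78 to 3.06 FPKM at E12 and to 24.6 to 45.0 at E17.5. All 9 were above 0 in every E17.5 library, and Ckm, Tnnt3, Tnnc2, Myh8 and Myog were listed at 0 in the wild-type library of E12.0. Their part in the higher Cox7a1 at E17.5 was not tested. Cox4i2, the form linked to low oxygen, was listed at 0 in wild-type and was at 0.325 FPKM in mutant at E12.0, at 1.21 and 0.141 at E12.5, and between 1.54 and 2.31 in the 4 E17.5 libraries. It reached a mean of 1 FPKM through its E17.5 values alone, so its place among the 51 members that lay above is set by that filter.

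Among the abundant complex IV genes Cox6a1 had the largest ratio. It was at 133 and 254 FPKM in the wild-type libraries and 164 and 224 in mutant at E12.0 and E12.5, and at 387 and 383 in wild-type and 387 and 316 in mutant at E17.5, 1.54 times E12.5. Cox6b1 and Cox5b were 1.49 and 1.41 times as high as at E12.5, and Ndufa4 1.42 times. Ndufa4l2, its paralog, was at 4.20 to 6.22 FPKM at E17.5 and made up 1.54% ± 0.267 of the pair. Cox7c was at 397 and 349 FPKM at E12.5 and at 326 to 340 at E17.5, and Cox7a2l was at 202 and 195 at E12.5 and at 166 to 174 at E17.5. Both were lower at E17.5 than in either E12.5 library and higher than at E12.0, where Cox7c was at 242 and 274 FPKM and Cox7a2l at 134 or less.

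The clearest exception among all members was in complex V, in the 3 genes for subunit c. Subunit c forms the rotating ring of ATP synthase, and Atp5g1, Atp5g2 and Atp5g3 encode the same mature protein behind different import sequences. Atp5g2 gave 212 FPKM for the wild-type and 260 for the mutant library of E12.0, with 310 and 306 for those of E12.5. At E17.5 it was at 177 and 177 in wild-type and 171 and 143 in mutant. It was the only one of the 88 members in which all 4 E17.5 libraries lay below all 4 E12 libraries, at 0.61 times the E12 mean. Atp5g1 went the other way: 78.4 and 137 FPKM in the wild-type libraries and 93.4 and 127 in mutant at E12.0 and E12.5, then 180 and 184 in wild-type and 176 and 156 in mutant. Atp5g3 overlapped between the stages, with 172 to 250 FPKM at E12 and 191 to 260 at E17.5.

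Shares within a library do not depend on its scale, and they separated the stages cleanly. Atp5g2 held 45.9% ± 1.63 (SD, n = 4) of the summed subunit c FPKM at E12 and 28.9% ± 0.213 at E17.5. Atp5g1 held 18.2% ± 1.27 and then 30.2% ± 1.16, and Atp5g3 35.9% ± 1.12 and then 40.9% ± 1.37. No library of one stage overlapped with the other for any of the 3 genes, although the E12.0 and E12.5 libraries differed in total. Within E12 the shares also moved a little: Atp5g2 held 45.8% and 48.2% at E12.0 against 44.5% and 45.1% later, at E12.5, and Atp5g1 16.9% and 17.3% against 19.7% and 18.8%. Genotype made no visible difference, with Atp5g2 at 28.7% and 28.9% in wild-type and 28.8% and 29.2% in mutant at E17.5. At E17.5 Atp5g1 was the sum of 2 accessions, and 1 row stood for it at E12. Of these NM_007506 was at 116 and 119 FPKM in the wild-type libraries and 113 and 117 in mutant, and NM_001161419 at 63.6 and 65.6 against 63.5 and 38.7. The number of rows summed therefore enters all 3 shares through their total, while the FPKM of Atp5g2 and Atp5g3 came from 1 row in both kinds of table.

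**Figure D3:**
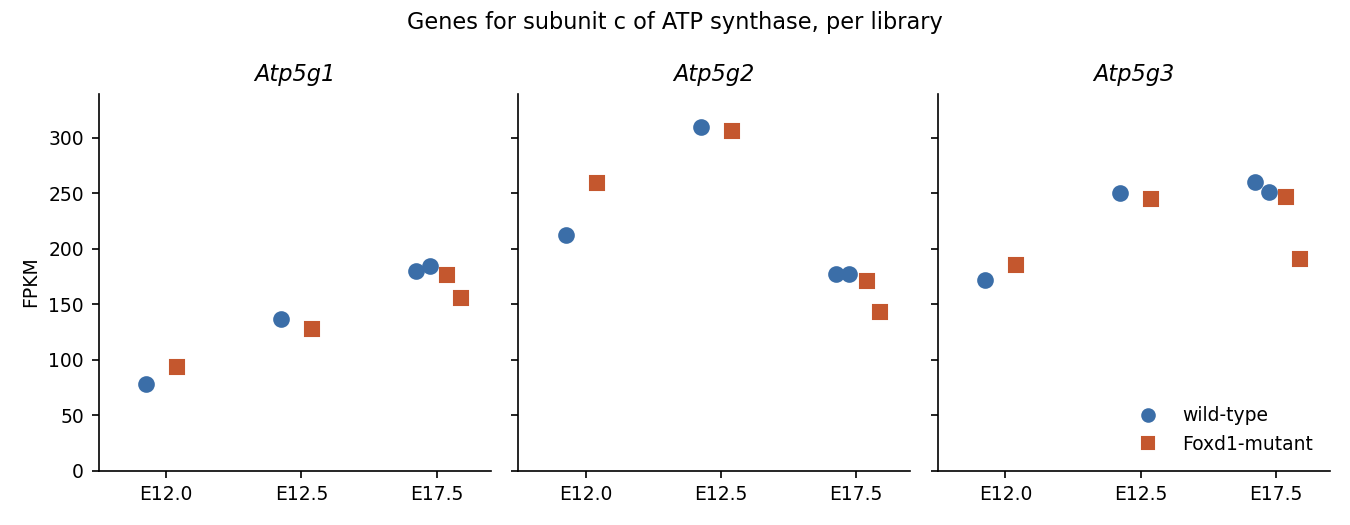
FPKM (y axis, from 0) of the 3 genes for subunit c of ATP synthase in each library, by embryonic stage; circles are wild-type and squares Foxd1-mutant. Atp5g2 lies between 143 and 177 FPKM at E17.5, below its 4 E12 values, while Atp5g1 lies above its own.

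The bases just before the annotated start of these 3 genes are shown because their products are identical while their levels went different ways, and Cox6a1 is shown as a member that was higher at E17.5. The sequences are from RefSeq on build GRCm38.p6, a later build than the mm9 of the files, and all lie on the minus strand: Atp5g1 at chr11:96075632-96075811, Atp5g2 at chr15:102671048-102671227, Atp5g3 at chr2:73911327-73911506 and Cox6a1 at chr5:115348959-115349138. Each covers the 180 bases before the start, 5′ to 3′ in the direction of the gene. Capitals mark letters of the 3 motifs searched: a palindromic 10-base form of the site of NRF1, CCGGAAG, a form of the site of ETS factors such as GABPA, and AAGATGGCG, a form of the site of YY1.
Atp5g1: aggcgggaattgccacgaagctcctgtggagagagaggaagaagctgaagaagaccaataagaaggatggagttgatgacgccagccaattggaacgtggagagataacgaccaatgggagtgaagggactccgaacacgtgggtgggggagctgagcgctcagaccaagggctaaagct
Atp5g2: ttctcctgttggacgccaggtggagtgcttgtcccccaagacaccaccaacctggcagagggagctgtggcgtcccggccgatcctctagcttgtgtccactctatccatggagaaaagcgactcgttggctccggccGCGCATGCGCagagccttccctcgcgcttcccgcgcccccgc
Atp5g3: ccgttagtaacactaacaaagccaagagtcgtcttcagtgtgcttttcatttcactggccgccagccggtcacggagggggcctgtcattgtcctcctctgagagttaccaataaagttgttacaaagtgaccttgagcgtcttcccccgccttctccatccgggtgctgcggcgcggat
Cox6a1: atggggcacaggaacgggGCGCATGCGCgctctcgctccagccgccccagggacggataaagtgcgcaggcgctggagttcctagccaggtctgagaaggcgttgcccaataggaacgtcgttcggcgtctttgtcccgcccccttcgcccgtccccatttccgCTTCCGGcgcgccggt

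The Atp5g2 window holds the NRF1 letters, the Cox6a1 window holds them and, on the other strand, the ETS letters, and the Atp5g1 and Atp5g3 windows hold none of the 3. Both strands were searched from 250 bases before to 50 after each start. NRF1 letters read the same on both strands, and the last letters of the ETS motif are the first of the YY1 motif, so those motifs can overlap. Of 93 members 77 had such a window, matched by RefSeq accession. NRF1 letters were in 7 of them, or 9.09%, against 1.07% of the windows of 27025 genes. ETS letters were in 18, or 23.4% against 9.93%, and YY1 letters in 9, or 11.7% against 1.64%. The 7 with NRF1 letters were Atp5g2, Atp5k, Cox6a1, Ndufa11, Ndufaf4, Ndufaf5 and Uqcrc1. Their median log2 difference from E12.5 to E17.5 was 0.26, and that of the 69 members without was 0.22. The median was 0.28 with and 0.22 without ETS letters, and 0.10 with and 0.23 without YY1 letters. A match is a string of letters and not a measured binding site.

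Among the other subunits of complex V the ratios of E17.5 to E12.5 ran from 0.88 for Atp5j to 1.36 for Atp5k. Atp5a1 and Atp5b, the alpha and beta subunits of the catalytic head, were 0.96 and 1.11 times as high at E17.5 as at E12.5. Atp5k, Atp5l and Atp5h had the larger ratios, 1.36, 1.28 and 1.26. Atp5j was at 131 and 133 FPKM at E12.5 and at 111 to 119 at E17.5, lower in all 4 libraries, and Atp5f1, at 184 and 187 and then 174 to 177, was lower as well. At E12.0 both were lower still, Atp5j at 95.9 to 100.1 FPKM and Atp5f1 at 106 to 138. Atp5s, a related gene whose product is a coupling factor, was at 2.61 to 3.48 FPKM at E12 and 6.17 to 6.87 at E17.5, and the complex I assembly factors Ndufaf7, Ndufaf6 and Ndufaf2 were 1.63, 1.42 and 1.38 times as high as at E12.5. Ndufaf3, another assembly factor, was at 23.0 and 23.9 FPKM at E12.5 and at 19.1 to 21.99 at E17.5, and at E12.0 it reached at most 15.4.

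Genes that work next to the respiratory chain differed between stages in their own ways. Slc25a5 and Slc25a4 encode exchangers that carry ADP in and ATP out of the mitochondrion. Slc25a5 was at 288 to 411 FPKM in the E12 libraries and 150 to 163 at E17.5, and Slc25a4 was at 187 to 352 and then 447 to 545, so the pair changed order between the stages. In the tricarboxylic acid cycle list, which makes the NADH and succinate that feed the chain, 10 of 13 genes lay above E12 in all E17.5 libraries and 0 below. In the glycolysis list the counts were 12 and 2 of 17, and among 16 complex IV assembly genes 4 and 0. Cytosolic ribosomal protein genes, also short and abundant, had 9 above and 4 below of 78, and mitochondrial ribosomal protein genes 15 and 3 of 74. After centring on the library median these turned to 3 above and 27 below and to 9 and 22, and the cycle list to 6 and 1, glycolysis to 10 and 3 and complex IV assembly to 2 and 5. Of all genes 45.4% lay above and 17.4% below, and after centring 36.3% and 33.8%. Differences of the lists from these shares were not tested.

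Among 11 tested regulators of mitochondrial genes 1 lay above and 4 below, against 45.4% and 17.4% of all genes. After centring 10 lay below, against 33.8%. The 1 above was Ppargc1a, a coactivator of mitochondrial genes, at 0.309 to 0.706 FPKM at E12 and 3.03 to 3.36 at E17.5. Like Cox4i2 it reached a mean of 1 FPKM through its E17.5 values alone, so its place above is set by that filter. Nrf1 was at 16.1 to 21.1 and then 12.4 to 13.5 FPKM, and Gabpb1, a partner of GABPA, at 17.4 to 21.1 and then 10.2 to 13.8. Yy1 was at 32.6 to 42.6 and then 29.9 to 31.5 FPKM, while Gabpa overlapped, with 13.0 to 14.9 and then 11.1 to 13.7. Of the genes for the factors named with the motifs, Nrf1 and Yy1 were thus lower in every E17.5 library before centring and Gabpa was not. After centring Gabpa was also among the 10 that lay below. The 10 neuronal markers of a fixed list summed to 1228 to 2143 FPKM at E12 and 3379 to 3670 at E17.5, and the 10 markers of proliferating cells to 293 to 376 and 54.6 to 76.4. Fewer cells of a type and less RNA per cell cannot be told apart in such bulk samples, and the part of cell composition in the stage differences was not tested.

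At E17.5 no respiratory chain gene passed the test between genotypes. Of 88 members tested with limma 0 passed at a Benjamini-Hochberg adjusted p under 0.05, against 0.00756% of the 13235 genes tested, and the lowest adjusted p of a member was 0.689. At an unadjusted p under 0.05 there were 5 members, 5.68%, against 5.70% of all genes. This number rested on single libraries: it was 53 members, 60.2% against 28.4% of all genes, without mutant replicate 1, and 0 to 2 without any other library. The median 95% interval of a member, without adjustment, reached 0.17 to each side on the log2 scale. A smaller difference could not be told from 0 in a member with that interval, and some members had narrower intervals. Larger differences did not pass the adjusted threshold either, such as -0.29 in Atp5e and 0.35 in Cox6b2.

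The values still leaned one way. The log2 difference of mutant and wild-type was positive in 17 of 88 members and its median was -0.08, against 0.00 for all genes. Both mutant libraries lay below both wild-type libraries in 36 members, against 22.2% of all genes, and above them in 8, against 20.9%. The 36 were 3 of the 7 core and 13 of the 29 accessory subunits of complex I, 1 of 4 in complex II, 4 of 8 in complex III, 5 of 16 in complex IV, 8 of 15 in complex V and 2 of 9 assembly genes. The class medians lay between -0.03 for the assembly genes and -0.14 for complex III.

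Mutant replicate 2 carried most of the lower median. Its median difference from the wild-type mean was -0.14 over the members and that of mutant replicate 1 was -0.01. It lay below the other 3 libraries in 67 of 88 members, against 36.4% of all genes. Replicate 2 lay below both wild-type libraries in 69 members, against 41% of all genes, and replicate 1 in 37, against 34.4%. Without mutant replicate 2 the median of the members was -0.01 with 36 of 88 positive, and without mutant replicate 1 it was -0.14 with 15 positive. In the summed FPKM of all members, mutant was 0.94 times wild-type with both libraries, 0.99 times without replicate 2 and 0.89 times without replicate 1.

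The same library differed in other ways. The telencephalon markers Neurod6, Tbr1, Eomes, Emx1 and Emx2 were all highest in it. Neurod6 was at 33.7 FPKM against 8.48 to 11.1 in its 3 E17.5 counterparts, Tbr1 at 9.83 against 4.15 to 5.91 and Eomes at 8.39 against 3.03 to 5.74. Emx1 was at 4.07 FPKM against 0.489 to 1.18 and Emx2 at 4.82 against 3.27 to 3.46, so none was at 0 in any of the 4. Its 6 hypothalamic markers summed to 28.8 FPKM, against 38.3 in mutant replicate 1 and 45.0 and 42.2 in wild-type, so both mutant libraries were lower. In mutant replicate 2 the 10 markers of proliferating cells summed to 76.4 FPKM, against 54.6 to 59.6 in the others. Small RNA genes took 9.77% of its FPKM against 13.8% to 14.6%. It also had lower values of short genes: the median difference from the wild-type mean was -0.16 for 53 members with transcripts under 1000 nt and -0.12 for 35 longer ones, against -0.08 for 757 other short genes and 0.01 for 11477 other long ones. The part of these features in the lower respiratory chain values was not tested.

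**Figure D4:**
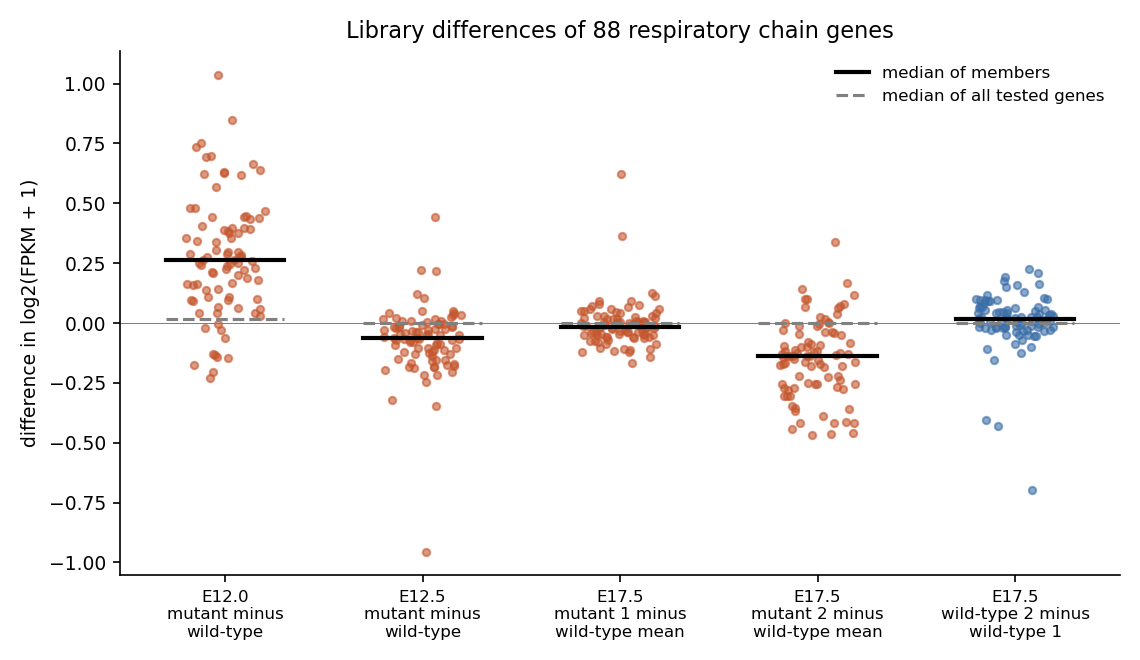
Differences in log2(FPKM + 1) (y axis) of the 88 respiratory chain genes between single libraries, or between a mutant library and the wild-type mean (x axis); points are genes, black bars are their medians and dashed bars the medians of all genes. The medians are 0.26 at E12.0, -0.06 at E12.5, -0.01 for mutant 1 and -0.14 for mutant 2 at E17.5, and 0.02 between the wild-type libraries.

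The 4 members that were lower in mutant with an unadjusted limma p under 0.05 show the pattern. Ndufa7, an accessory subunit of complex I, was at 171 and 179 FPKM in the wild-type libraries and 158 and 145 in mutant, a log2 difference of -0.21 ± 0.06 (standard error, limma adjusted p = 0.689). Both mutants lay below both wild-types, and replicate 2 was the lowest. Ndufc1 was at 104 and 107 against 96.7 and 80.2 FPKM, with a log2 difference of -0.26, and Ndufb6 at 97.1 and 101 against 91.4 and 76.8, with -0.24. Uqcr11, a small subunit of complex III, was at 249 and 242 FPKM in the wild-type libraries and 228 and 184 in mutant, a difference of -0.26. These 4 and Cox6b2 were the members with an unadjusted p under 0.05, and none passed after adjustment.

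In Atp5e, Ndufa2, Uqcr10 and Cox8a differences of -0.26 to -0.29 came with intervals that included 0. Atp5e, the epsilon subunit of the ATP synthase stalk, was at 316 and 289 FPKM in the wild-type libraries and 280 and 218 in mutant, and its log2 difference of -0.29 had a 95% interval from -0.60 to 0.02. For Ndufa2 the log2 difference was -0.29 with an interval from -0.58 to 0.01. Cox8a was at 402 and 396 FPKM in the wild-type libraries and 383 and 290 in mutant, with a difference of -0.26. Uqcr10 was at 184 and 171 against 168 and 130 FPKM, also with -0.26. In each of the 4 the gap between the mutant libraries was larger than the gap between mutant replicate 1 and the nearer wild-type library. Among core subunits and complex II the largest differences were -0.18 for Ndufv1 and -0.16 for Sdhd, and among the assembly genes -0.11 for Ndufaf3.

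A few members were higher in mutant at E17.5. Ndufa12, an accessory subunit of complex I, was at 161 and 165 FPKM in the wild-type libraries and 174 and 183 in mutant, a log2 difference of 0.13 with an interval from 0.00 to 0.26 (limma adjusted p = 0.689). Its lower end was just below 0. Uqcrb differed by 0.08, Atp5h by 0.08 and Atp5s by 0.08, each with all mutant values above all wild-type ones. Cox6b2, the testis form of Cox6b, was at 4.44 and 3.11 FPKM in the wild-type libraries and 5.09 and 4.98 in mutant, a log2 difference of 0.35. That value was 0.55 without wild-type replicate 1, 0.15 without wild-type replicate 2 and 0.13 with the highest accession alone. It is the sum of 6 accessions, each at 2.43 FPKM or less in every library, so it rests on few fragments.

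At E12 the direction was set by the E12.0 libraries. There mutant was higher than wild-type in 77 of 88 tested members, against 52.4% of all genes, with a median log2 difference of 0.26. In 12 members the difference passed 1.5-fold, against 3.09% of all genes, and in 0 it passed 1.5-fold downward, against 6.38%. Uqcr10 went farthest, from 43.8 to 91.0 FPKM, followed by Atp5e, from 128 to 232, and then Ndufb2, Ndufc2, Ndufa7, Ndufa5, Uqcr11, Ndufc1, Ndufa4, Cox7a2, Uqcrb and Uqcrh. At E12.5 mutant was higher in 20 of 88, against 51.4%, with a median of -0.06, and 0 members passed 1.5-fold in either direction, against 0.36% and 0.912% of all genes. Uqcr10 was then at 121 FPKM in the wild-type library and 109 in mutant, and Atp5e at 331 and 285, so the order of the genotypes was the reverse of that at E12.0. With 1 library per genotype these differences have no replicate check.

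The wild-type library of E12.0 was the low one for these genes. From E12.0 to E12.5 all 88 members followed in the stage comparison were higher in wild-type, against 80.6% of all genes, and 69 of them by more than 1.5-fold, against 28.1%. In mutant 87 were higher, against 91.3%, and 4 by more than 1.5-fold, against 13.8%. These counts depended on scale. After centring each library on its median, 82 members were higher in wild-type, against 51.7% of all genes, and 17 by more than 1.5-fold, against 6.66%. In mutant the centred counts were 59, against 46.4%, and 0, against 1.49%. Short genes moved with it: the E12.0 difference between genotypes had a median of 0.29 in members under 1000 nt, 0.23 in longer members, 0.20 in other short genes and 0.01 in other long genes. The cytosolic and mitochondrial ribosomal protein genes had medians of 0.33 and 0.20 at E12.0, while at E12.5 both were 0.01. Hypothalamic markers summed to 164 FPKM in the wild-type library and 89.5 in mutant at E12.0, and to 131 and 169 at E12.5. The part of transcript length and tissue makeup in the E12.0 difference was not tested.

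With both early stages in one fit and stage as a block, 0 of 88 members passed in limma, against 0.0335% of 11952 genes, and the lowest adjusted p was 0.976. At an unadjusted p under 0.05 there was 1 member, against 1.41% of all genes. This was Ndufaf2, an assembly factor of complex I, with 10.1 FPKM for the wild-type and 15.5 for the mutant library of E12.0 and 16.4 and 22.7 for those of E12.5. The mutant library was higher by 0.57 and 0.44 on the log2 scale, and the fitted difference was 0.51 ± 0.13 (standard error, limma adjusted p = 0.976). The median difference of the members was 0.09, and it was 0.05 with small RNA genes left out. It depended on single libraries: it was 0.26 without either E12.5 library and turned to -0.062 without either E12.0 library. Each of these refits held a single early pair of genotypes and took its spread from the E17.5 replicates, so their calls are not counted here. Ndufaf2 at E17.5 had 27.4 and 27.2 FPKM for wild-type, 27.4 and 25.4 for mutant, and these overlapped.

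Over all stages 0 of 88 members passed in limma, against 0% of 12519 genes, with a lowest adjusted p of 0.749 and a median log2 difference of 0.01, which was -0.0723 without either E12.0 library. The 1 member with an unadjusted p under 0.05, against 5.55% of all genes, was Ndufa12, with 0.17 ± 0.07 (limma adjusted p = 0.749). It was higher in mutant at each stage: 78.8 against 59.5 FPKM at E12.0, 106 against 103 at E12.5, and in all libraries at E17.5. In the test of whether the genotype difference itself differed between E17.5 and E12, 0 of 88 members passed in limma, against 0.032% of 12519 genes. The 1 with an unadjusted p under 0.05, against 3.95%, was Ndufaf2, whose difference was lower at E17.5 by a log2 value of -0.55 (limma adjusted p = 0.749). The median over members was -0.18, and it was -0.02 when either E12.0 library was left out and -0.11 with small RNA genes left out. When either E12.5 library was left out the median was -0.35, with the lone E12.0 pair as the only early comparison of genotypes.

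At E17.5 the rows per accession show which transcript each value rests on. Of the members, 12 had more than 1 row, with 33 rows in all. In Atp5c1, Cox7a2l and Ndufv2 one accession held at least 98% of the gene in every library. Ndufs1 was spread over 4 accessions, the largest at 51.2% to 57.8% and the next at 34.3% to 40.0%, with no split between genotypes. For Ndufv3, whose 2 accessions differ in length, the short form NM_001083891 was at 144 to 162 FPKM and the long form NM_030087 at 8.86 to 9.78, so the short form held 93.6% to 94.8%. In Atp5g1 mutant replicate 2 alone departed, with the shorter accession at 24.9% of the gene against 35.4% to 36.0% in the other libraries.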

How the data were processed

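Gene expression was measured by paired-end RNA sequencing of 100 cycles. The deposited FPKM values were made by the authors with TopHat and Cufflinks on mm9, per the submitters' processing notes, without versions. Rows sharing a symbol were summed, and 8 E12 rows without a gene name, at most 0.0360% of FPKM, were left out. After taking log2(FPKM + 1), limma 3.58.1 in R 4.3.3 tested every gene averaging 1 FPKM or more in the libraries compared, two-sided, its variance prior following the mean level, with Benjamini-Hochberg adjustment over all genes tested. The fits left 2 residual degrees of freedom at E17.5, 1 at E12, 4 for all stages together and 3 for the difference. Without counts no count model was used. Transcript lengths came from GENCODE M21 by RefSeq accession. The scripts were tested on simulated data. Members, lists and the rule for named genes (extremes of each complex, paralogs, core subunits) were chosen with earlier results of these data known. Alternatives changed the pseudocount, filter, scaling, trend, row joining, blocks and libraries. Python 3.11.15, numpy 2.4.6, pandas 2.3.3 and matplotlib 3.10.9 were used. The values of a core subunit of complex I and of a telencephalon marker are not reported here.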

Additional observations from a re-analysis of the deposited data

Results flagged for a closer look

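The summed FPKM of all respiratory chain genes differed between the genotypes in opposite directions at the early stages: mutant was 1.24 times wild-type at E12.0 and 0.946 times at E12.5. With 1 library per genotype at each stage this difference was not tested.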

How the results depend on the processing

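The count of members past the adjusted threshold was 0 in all 40 alternatives that kept every library. At E17.5 this includes the replicate block, where 0 members and 16 genes in all passed and 16 members, 18.2% against 8.82% of all genes, had an unadjusted p under 0.05: the E17.5 libraries share only a number, and the correlation across genes of replicate 1 minus replicate 2 between the genotypes was 0.028 over 13235 genes and 0.29 over the 88 members. With no stage block 78 genes and 0 members passed at E12. Leaving out each library in turn gave 0 members at E17.5 and over all stages. At E12 the range was 0 to 23 and for the difference between stages 0 to 17: without wild-type E12.5 these were 23 higher and 17 lower members, and without mutant E12.5 19 and 13, with Ndufaf2 past the threshold in all 4. In those fits the lone E12.0 pair is assumed to vary like the E17.5 replicates. Many genes outside the members also passed in all 4 of them, so no result for the members is drawn from these counts. The median log2 difference of members ranged from -0.14 to -0.01 at E17.5, from -0.062 to 0.262 at E12, from -0.0723 to 0.0607 over all stages and from -0.35 to -0.02 for the difference when single libraries were left out, and over all stages it was -0.00034 with small RNA genes left out. Members 2-fold higher in mutant at E12.0 numbered 1. Members lower at E17.5 than at E12 numbered 4 centred, 2 with small RNA genes left out, 2 in mutant libraries alone and 11 without E12.0, the last chosen after seeing the data, and the ratio of summed FPKM was 1.25 with small RNA genes left out and 1.16 without E12.0. None of the genes named for a difference in the tested genotype comparisons changed direction in these alternatives. The genes named for the untested E12.0 difference were not followed in this way, and Uqcr10 and Atp5e went the other way at E12.5. Between stages, 19 members that were higher on average at E17.5 than at E12 were lower than at E12.5. Low, uncertain depth at E12 and 1 library per genotype there limit what could be seen.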
